A study of Drosophila melanogaster with 9 samples.

Results

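CG11893 and CG31436 are protein-coding genes of Drosophila melanogaster that lie in a tandem cluster of ecdysteroid kinase-like genes on chromosome arm 3R. The cluster was taken as every protein-coding gene that starts within a fixed stretch of 40 kb, build dm6, whose first gene starts at position 25281548 of 3R and whose last ends at 25320101. It holds 18 genes, of 12354 protein-coding genes in the deposited tables. CG11893 and CG31436 were chosen from their measured levels in these libraries, in which they were lower in the group labelled 412KD. Their values are therefore given as a description, with no test. The other 16 genes were taken by position alone, and those that passed the filter on low counts were tested.

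The family is named after an enzyme of the silkworm Bombyx mori, ecdysteroid 22-kinase, which attaches a phosphate to ecdysteroids and turns the moulting hormone into a storage form. In flies the family is large, its genes often stand side by side in clusters, and most members have no known substrate. A role in detoxification has also been proposed for part of it.

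Thoraces of female flies were pooled on adult day 20 and their RNA was sequenced in 9 libraries, 3 for each of 3 groups. All flies carried the background W1118 (BL5905) and expressed a short hairpin RNA under the ubiquitous driver Act5C. The hairpin was directed against the retrotransposon 412 in the group labelled 412KD and against the retrotransposon roo in RooKD, and it was a scrambled sequence in the scramble group. The control flies thus carried a driver and a hairpin as well. Whether the pools were raised separately is not stated, so any p-value speaks of the spread among these pools alone, which may be technical.

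The libraries held 17547687 to 26171509 reads assigned to features. On average, the targeted elements were not lower in the groups named after them. The 412 features held only 10, 23 and 18 reads in 412KD and 15, 16 and 11 in scramble. With so few reads, a knockdown of 412 cannot be judged from these libraries. The 412 features had 0.699 ± 0.199 counts per 1000000 reads (CPM; SD, n = 3) in 412KD and 0.645 ± 0.160 (SD, n = 3) in scramble (two-sided exact permutation test, p = 0.8, smallest possible 0.1). The roo features had 11.2 ± 2.31 in RooKD and 10.3 ± 2.40 in scramble (n = 3 each, exact permutation p = 0.7). Groups are therefore named below as the libraries labelled 412KD and RooKD. The flight muscle markers were all detected in each library. 412KD replicate 3 and RooKD replicate 1 stood apart, with summed ovary and germline markers of 784 and 455 CPM. 412KD replicate 1 had 111, and the other 6 libraries had 1.32 to 3.93.

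The 18 genes span 38554 bp, with 8 on the plus strand and 10 on the minus strand. Every one carries the ecdysteroid kinase domain in the deposited gene descriptions. Their coding sequences encode 396 to 439 amino acids in 2 to 6 exons, and the gaps between neighbouring genes run from 3 to 1333 bp. None overlaps another gene of the reference annotation. CG11893 (FBgn0039316) lies at 3R:25289889-25291366 on the plus strand, has 2 exons and encodes 416 amino acids. It ends 3 bp before CG31098, which is read in the opposite direction, and no source used here gives the strand setting of the counting. CG31436 (FBgn0051436) lies at 3R:25304137-25305651 on the plus strand, has 3 exons and encodes 420 amino acids. A stretch of 12770 bp with 6 genes separates the pair. RefSeq gives 7 of the 18 genes names of the series Dro5, all on the plus strand, and both chosen genes are among them, as Dro5-6 and Dro5-10.

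CG11893 was low in every library labelled 412KD. The 412KD libraries held 58, 89 and 41 reads of it, those of RooKD 564, 399 and 385, and those of scramble 596, 271 and 275. After scaling by library (trimmed mean of M values, TMM), these were 3.0, 3.5 and 1.7 CPM in 412KD, 25.6, 20.3 and 22.8 in RooKD, and 23.5, 12.6 and 12.1 in scramble. The highest 412KD library thus lay below the lowest library of either other group, while RooKD and scramble overlapped through scramble replicate 1. The means were 2.73 ± 0.957 CPM in 412KD, 22.9 ± 2.65 in RooKD and 16.1 ± 6.45 in scramble (SD, n = 3 each). The fitted log2 fold change was −2.56 ± 0.38 (SE) against scramble, a level 5.89-fold lower, and −3.07 ± 0.34 against RooKD, a level 8.39-fold lower. RooKD differed from scramble by 0.52 ± 0.26. By fitted log2 fold change, CG11893 stood 15th from the lowest of 10431 features in 412KD against scramble and 4th of 10599 in 412KD against RooKD. CG31436 stood 250th and 75th. These ranks are a description only, since both genes were chosen for their low levels in 412KD. In such bulk samples, fewer cells of a type and less RNA per cell cannot be told apart.

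CG31436 was lower in the same libraries, by less. The 412KD libraries held 288, 331 and 224 reads of it, those of RooKD 583, 544 and 554, and those of scramble 549, 467 and 459. These were 15.1, 13.0 and 9.0 CPM in 412KD, 26.5, 27.7 and 32.8 in RooKD, and 21.7, 21.7 and 20.2 in scramble. No pair of groups overlapped, with 412KD lowest, scramble between and RooKD highest. The means were 12.4 ± 3.07, 29.0 ± 3.34 and 21.2 ± 0.822 CPM in 412KD, RooKD and scramble (SD, n = 3 each). The log2 fold change was −0.78 ± 0.19 in 412KD against scramble, 0.46 ± 0.13 in RooKD against scramble and −1.23 ± 0.18 in 412KD against RooKD. The 3 comparisons share libraries, so their values are not independent of each other.

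**Figure D1:**
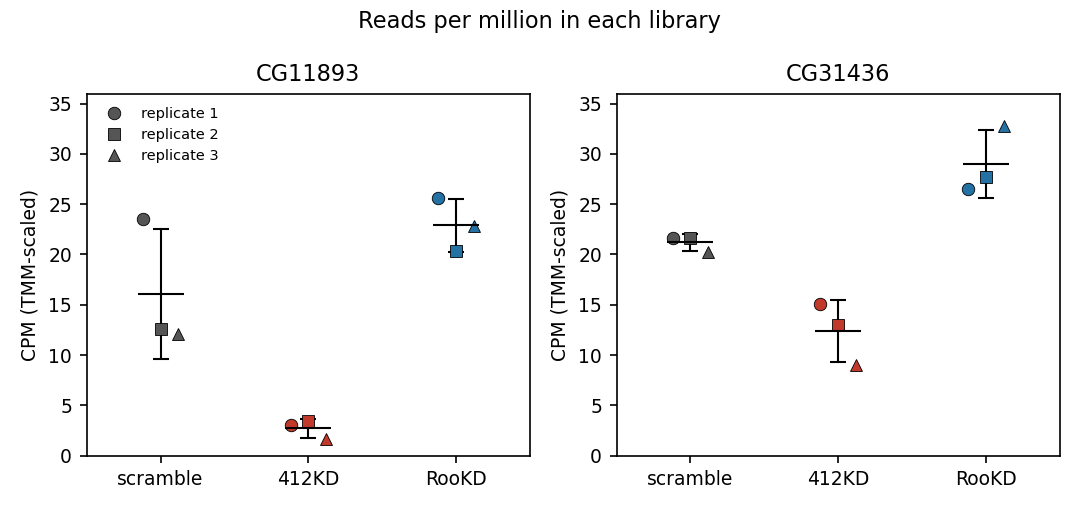
TMM-scaled CPM of CG11893 and CG31436 in each library (points) with the group mean and SD, for 412KD, RooKD and scramble. All 3 libraries labelled 412KD sit between 1.7 and 3.5 for CG11893 and between 9.0 and 15.1 for CG31436, below every library of the other groups.

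The lower levels of the pair did not follow a common factor. The ratio of CG11893 to CG31436 reads was 0.201, 0.269 and 0.183 in the 412KD libraries, 0.967, 0.733 and 0.695 in RooKD, and 1.09, 0.580 and 0.599 in scramble. This ratio needs no scaling between libraries, and it was lower in each 412KD library than in any other. As a share of all reads of the 18 genes, CG11893 took 0.527%, 0.732% and 0.293% in 412KD, 4.12%, 3.79% and 3.26% in RooKD, and 4.49%, 2.54% and 2.21% in scramble. The 95% Wilson interval was 0.595% to 0.899% for the 412KD share of 0.732% and 1.96% to 2.48% for the scramble share of 2.21%. These intervals cover counting error only, and they are no test, since the gene was chosen for its low level in these libraries. The share of CG31436 was 2.62%, 2.72% and 1.60% in 412KD, 4.26%, 5.17% and 4.70% in RooKD, and 4.14%, 4.39% and 3.69% in scramble, again with the 412KD libraries lowest.

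412KD replicate 2, the library of its group without raised ovary markers (3.93 CPM), had 3.5 CPM of CG11893 and 13.0 CPM of CG31436. Without 412KD replicate 3, the log2 fold change against scramble was −2.29 for CG11893 and −0.60 for CG31436. With both 412KD replicate 3 and RooKD replicate 1 left out, 412KD against RooKD gave −2.73 and −1.12. Both fits keep 412KD replicate 1, with 111 CPM of ovary markers. The fit that left out 412KD replicate 1 alone gave −2.64 for CG11893 and −0.94 for CG31436 against scramble. The part of ovary RNA in these values was not tested. The authors' deposited table gives log2 fold changes of −2.56 for CG11893 and −0.78 for CG31436 in 412KD against scramble.

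The other genes of the cluster gave no call in 412KD against scramble, where edgeR called 2 of all 10431 features. Of the 16, 15 could be tested, since CG31099 did not pass the filter on low counts, with 0 to 6 reads in a library. The quasi-likelihood test of edgeR called 0 of the 15 at an adjusted p under 0.05, against 0.0192% of all 10431 features, and DESeq2 called 0 against 2.97%. At an unadjusted p under 0.05 edgeR had 3 of the 15, and 1168 of the 10431 features. The median log2 fold change of the 15 genes was 0.12, beside 0.01 over all features, and 9 of them lay above 0. Their values ran from −0.70 for CG10559 to 0.81 for CG31104. The libraries did not overlap for CG31104 and CG31288, both higher in 412KD, and for none that was lower, against 8.67% and 9.1% of all features.

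In RooKD against scramble edgeR again called 0 of the 15, against 0.107% of all 10305 features. At an unadjusted p under 0.05 it had 4, and 1306 of all features. DESeq2 called 1 gene, CG31104, which was higher in RooKD, against 3.41% of all features called and 2.32% called higher. The median log2 fold change was 0.12, beside 0.02 over all features, with 10 of the 15 above 0 and a range from −0.25 for CG13658 to 0.88 for CG11892. For 4 genes, CG31104, CG31288, CG11892 and CG31087, every RooKD library was above every scramble library (9.2% of all features), and for CG10550 every one was below (9.46%).

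In 412KD against RooKD edgeR and DESeq2 called 0 of the 15, against 0.0943% and 0.774% of all features. At an unadjusted p under 0.05 edgeR had 2 of the 15, and 638 of all 10599 features. The median log2 fold change was −0.05, beside 0.00, with 6 of the 15 above 0 and a range from −1.27 for CG10559 to 0.66 for CG31097. The libraries did not overlap for CG10559, lower in 412KD (4.86% of all features), and CG13658, higher in 412KD (4.23%). The summed level of the 16 genes without CG11893 and CG31436 was 525 ± 55.2 CPM in 412KD, 566 ± 77.3 in RooKD and 485 ± 29.0 in scramble (SD, n = 3 each), and the 3 groups overlapped.

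CG10559, a minus-strand gene near the far end of the cluster, came nearest to the pattern of the chosen pair. It had 10.5, 6.4 and 4.2 CPM in 412KD, 24.5, 10.9 and 15.0 in RooKD, and 12.2, 12.1 and 9.7 in scramble. All 412KD libraries were below all RooKD libraries, but 412KD replicate 1 lay within the scramble range. The log2 fold change was −1.27 ± 0.37 in 412KD against RooKD, with an adjusted p of 0.542 by edgeR and 0.0530 by DESeq2, and −0.65 without both libraries high in ovary transcripts. Against scramble it was −0.70 ± 0.32, with an adjusted p of 0.484 by edgeR.

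CG31104, which lies 2 genes before CG11893 on the same strand, had the opposite direction to the pair in 412KD. It had 46.0, 32.8 and 51.6 CPM in 412KD, 41.7, 37.9 and 55.5 in RooKD, and 28.1, 17.4 and 28.8 in scramble. Both hairpin groups lay above scramble in every library and overlapped each other. The log2 fold change was 0.81 ± 0.25 in 412KD, with an adjusted p of 0.331 by edgeR and 0.0650 by DESeq2. In RooKD it was 0.88 ± 0.23, with an adjusted p of 0.216 by edgeR and 0.0214 by DESeq2, and 0.0214 to 0.668 over all alternatives. Since both comparisons use the same scramble libraries, they are not separate evidence.

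CG31288 was less variable. It had 37.9, 40.6 and 42.4 CPM in 412KD, 39.2, 36.7 and 46.5 in RooKD, and 28.2, 29.7 and 34.0 in scramble, so that both hairpin groups again lay above scramble. The log2 fold changes were 0.40 ± 0.11 and 0.42 ± 0.14, with adjusted p of 0.300 and 0.276 by edgeR. CG31087 was above scramble in RooKD only by library range, with 87.0, 53.7 and 60.9 CPM against 43.6, 46.1 and 45.9, and with 64.6, 42.2 and 43.4 in 412KD. Its log2 fold change in RooKD was 0.58 ± 0.17, with an adjusted p of 0.239 by edgeR.

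CG11892, the first gene of the cluster, had the largest quotient of highest to lowest replicate within either hairpin group among the genes that passed the filter. It had 19.9, 13.1 and 43.9 CPM in 412KD, 40.0, 26.9 and 69.5 in RooKD, and 26.2, 25.1 and 23.5 in scramble. The log2 fold change of 0.04 ± 0.42 in 412KD against scramble became −0.60 without 412KD replicate 3, the library with the most ovary transcripts. In RooKD the high library was replicate 3, which was not high in ovary transcripts, and the log2 fold change was 0.88 ± 0.32, with an adjusted p of 0.327 by edgeR.

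The genes next to the chosen pair showed smaller differences. CG13658, the gene before CG11893, had 10.2, 10.6 and 15.4 CPM in 412KD, 9.3, 8.2 and 8.1 in RooKD, and 12.1, 9.7 and 8.8 in scramble. CG31098, the gene 3 bp after it, had 22.4, 19.5 and 28.8 CPM in 412KD, 27.3, 22.5 and 30.4 in RooKD, and 26.8, 26.3 and 23.2 in scramble. Both overlapped between 412KD and scramble, and the log2 fold changes were 0.25 ± 0.21 and −0.11 ± 0.16. CG31370, the gene before CG31436, had 12.2, 9.7 and 8.3 CPM in 412KD, 11.6, 12.8 and 14.7 in RooKD, and 14.2, 11.6 and 15.3 in scramble. Its log2 fold change was −0.45 ± 0.18 in 412KD against scramble, with an adjusted p of 0.433 by edgeR. CG10550, the gene after CG31436, had 99.4, 95.9 and 76.3 CPM in 412KD, 67.4, 82.0 and 90.0 in RooKD, and 94.9, 90.0 and 98 in scramble. Between 412KD and scramble its log2 fold change was −0.06 ± 0.12.

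The chosen pair shares its strand and its series of RefSeq names with other genes that lay on both sides of 0. In 412KD against scramble, the 6 other plus-strand genes had a median log2 fold change of 0.18, with 5 above 0. The 9 tested minus-strand genes had a median of −0.06, with 4 above 0. The 5 other genes with a Dro5 name had a median of 0.25, with 4 above 0.

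**Figure D2:**
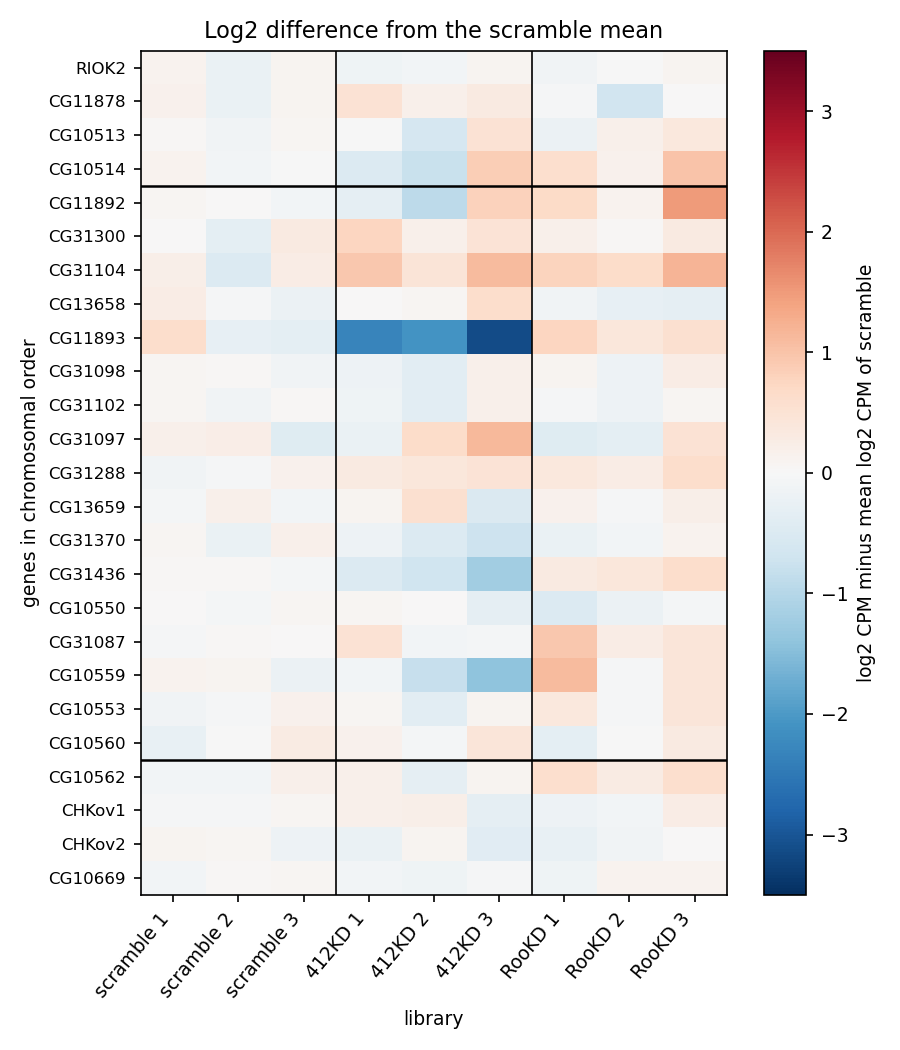
Log2 CPM of each gene of the cluster that passed the filter, in each of the 9 libraries, as the difference from the gene's mean over the scramble libraries, with genes in their order along 3R and horizontal lines between the cluster and the 4 nearest tested genes on each side. The 3 libraries labelled 412KD are lowest for CG11893, CG11892 differs most between replicates of a hairpin group, and most other genes stay near 0.

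The highest level of CG11893 over the 9 libraries was 15.5 times its lowest. The same quotient was 5.90 for CG10559, 5.32 for CG11892, 3.62 for CG31436, 3.19 for CG31104 and 3.02 for CG31097. For the other genes that passed the filter it was 1.45 to 2.13.

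Levels of different genes were compared as the deposited FPKM values, which are scaled by gene length and library size. In scramble the cluster ran from 61.4 ± 3.03 FPKM (SD, n = 3) for CG10550 and 52.8 ± 5.91 for CG10553 down to 2.01 for CG31097 and 0.042 for CG31099. Below the leading pair, in falling order, stood CG31087, CG10560, CG31300 and CG31288, from 32.2 to 23.1 FPKM. CG31102, CG31104, CG31098 and CG11892 followed, from 19.1 to 16.1. CG31436 was 11th at 15.7 ± 0.447 and CG11893 was 12th at 11.8 ± 4.56. CG13659, CG31370, CG10559 and CG13658 came after them, from 11.1 to 7.93 FPKM. The library ranges of neighbouring genes in this order overlapped except between ranks 2 and 3, 6 and 7, 16 and 17, and 17 and 18.

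CG11893 held the same rank in RooKD, 12th at 17.0 ± 1.64 FPKM, but was 17th in 412KD at 2.01 ± 0.698. Only CG31099 was lower there. CG31436 was 9th in RooKD at 21.8 ± 2.75 FPKM and 13th in 412KD at 9.22 ± 2.21.

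**Figure D3:**
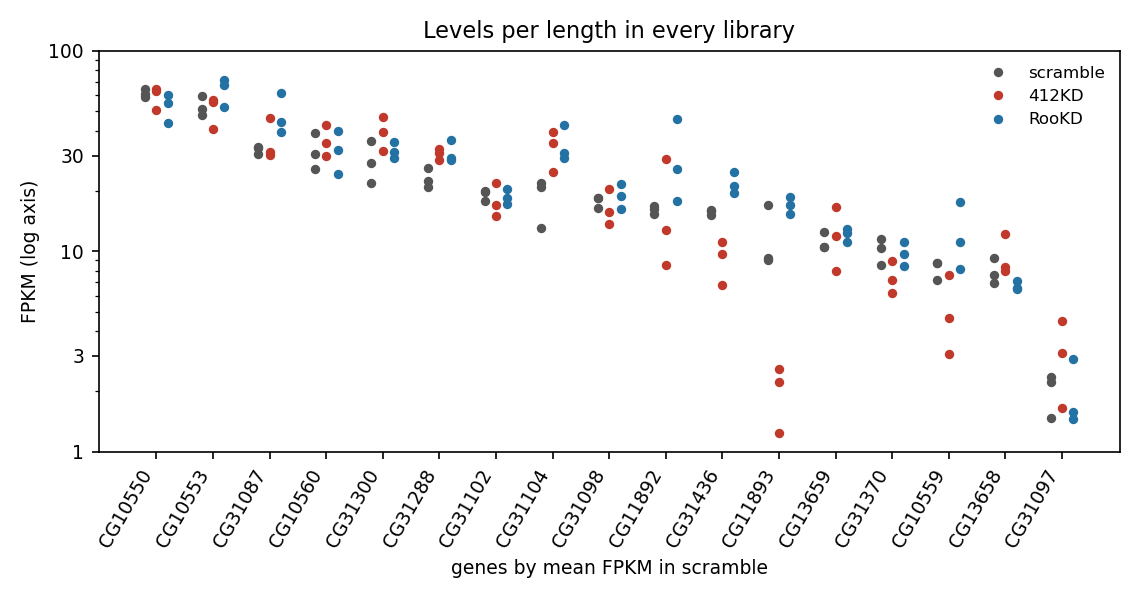
Deposited FPKM (log axis) of the cluster's genes, ordered by their mean in scramble, with a point for each library of 412KD, RooKD and scramble and without CG31099. CG11893 has a mean of 2.01 in 412KD against 11.8 in scramble, and CG31436 a mean of 9.22 against 15.7.

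The edges of the cluster are set by position. CG11892 and CG10560 are the first and last genes inside, and CG10514 and CG10562 are the nearest outside. In 412KD against scramble their log2 fold changes were 0.04, 0.16, 0.06 and −0.01. Of the 4 nearest tested protein-coding genes on each side, 6 of the 8 carry the kinase domain. They are CG11878, CG10513 and CG10514 before the window and CG10562, CHKov1 and CHKov2 after it. RIOK2, which encodes an atypical kinase of ribosome assembly, and CG10669 do not carry it. In each comparison edgeR and DESeq2 called 0 of the 8, with the shares of all features called as given above. At an unadjusted p under 0.05 edgeR had 1 of the 8 in 412KD against scramble, beside 1168 of 10431 features in all. It had 2 of the 8 in RooKD against scramble, beside 1306 of 10305, and 2 of the 8 in 412KD against RooKD, beside 638 of 10599. Their log2 fold changes ran from −0.17 (CHKov2) to 0.34 (CG11878), from −0.20 (CG11878) to 0.63 (CG10514), and from −0.56 (CG10514) to 0.55 (CG11878).

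The kinase-like genes outside the cluster gave no call, and few features of any kind were called by edgeR. They include the 6 neighbours that carry the kinase domain, so their counts and those of the neighbours are not separate. A list of 33 such genes outside the cluster held 30 in the tables, of which 28, 27 and 28 were tested in 412KD against scramble, RooKD against scramble and 412KD against RooKD. The highest mean count over all 9 libraries was that of CG31974, with 101 ± 7.21, 110 ± 6.91 and 95.8 ± 8.59 CPM in 412KD, RooKD and scramble (SD, n = 3 each). Neither edgeR nor DESeq2 called any of the list, against 0.0192%, 0.107% and 0.0943% of all features by edgeR and 2.97%, 3.41% and 0.774% by DESeq2. At an unadjusted p under 0.05 edgeR had 4 of 28, 8 of 27 and 6 of 28, beside 1168 of 10431, 1306 of 10305 and 638 of 10599 features in all. The medians were 0.05, 0.08 and −0.00, beside 0.01, 0.02 and 0.00 over all features. In 412KD against scramble the lowest of them was CG9259 at −0.69 ± 0.55, beside −0.78 ± 0.19 for CG31436. The pair was chosen for low values in 412KD, so no support is drawn from this order. In RooKD against scramble the values ran from −0.76 for CG5644 to 1.34 for CG33511, around those of the pair. In 412KD against RooKD the lowest was CG33511 at −1.24, next to −1.23 for CG31436. The highest values in the comparisons of 412KD with scramble and RooKD were 1.51 and 2.0, both of CG33509, which had at most 1.98 CPM in every library.

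**Figure D4:**
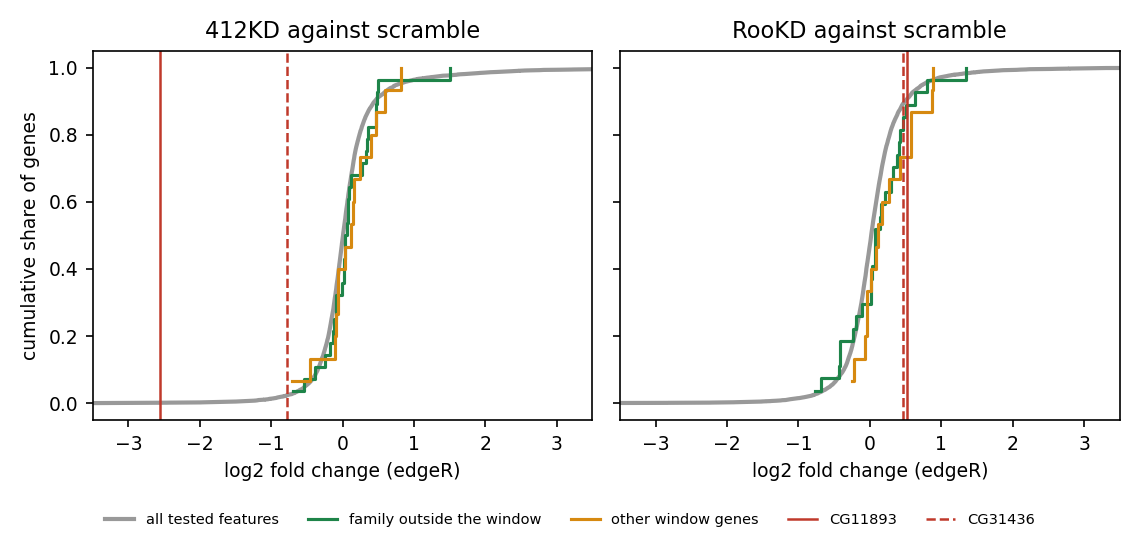
Cumulative share of log2 fold changes for all features tested, for the kinase-like genes outside the cluster and for the other genes of the cluster, with CG11893 and CG31436 as vertical lines, in 412KD against scramble and RooKD against scramble. The medians of the gene lists lie between 0.05 and 0.12, while CG11893 lies at −2.56 and 0.52 and CG31436 at −0.78 and 0.46.

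A list of genes tied to the synthesis, import and breakdown of ecdysone was tested beside the cluster, since the family is named after an enzyme of that hormone. Some of the listed genes encode regulators. Of 18 listed, 17 were in the tables and 11 were tested. Those in the tables but not tested, several of them synthesis genes, had at most 17 reads in any library. The test therefore says little about synthesis. In 412KD against scramble, RooKD against scramble and 412KD against RooKD, edgeR called 0, against 0.0192%, 0.107% and 0.0943% of all features. DESeq2 also called 0 in each, against 2.97%, 3.41% and 0.774%. At an unadjusted p under 0.05 edgeR had 0 of the 11, beside 1168 of 10431, 1306 of 10305 and 638 of 10599 features in all. Of 21 genes of the ecdysone receptor and early response, edgeR called 0 in 412KD against scramble (0.0192% of all features). It also called 0 in 412KD against RooKD (0.0943%). At an unadjusted p under 0.05 it had 4 and 0, beside 1168 of 10431 and 638 of 10599 features in all. In RooKD against scramble edgeR called Hr51, an orphan nuclear receptor gene, lower by a log2 fold change of −3.69 ± 0.43, with an adjusted p of 0.0332, so that 1 of 21 genes was called against 0.107% of all features. At an unadjusted p under 0.05 edgeR had 2 of the 21 there, beside 1306 of 10305. Hr51 was at most 6.97 CPM in any library. DESeq2 called Eip71CD, an ecdysone-induced gene for a methionine sulfoxide reductase, higher and Hr51 lower in both comparisons with scramble, which is 2 of 21 genes against 2.97% of all features in 412KD and 3.41% in RooKD. It called none of the 21 in 412KD against RooKD, against 0.774% of all features.

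Features with a pattern like that of CG11893 or CG31436 were looked up across libraries. Likeness was measured as Pearson r of log2 CPM over the 9 libraries, among 9006 features with a mean of at least 50 normalized counts. It is a description, since the libraries share their group differences. The likeness of CG11893 and CG31436 to each other follows from their choice, as both were picked for low levels in 412KD. The 5 features most like CG11893 were Cyp4p1 (r = 0.969), CG31436 (0.943), CG12934 (0.937), lectin-24Db (0.913) and mthl14 (0.905). The 5 most like CG31436 were CG12934 (0.976), Cyp4p1 (0.957), CG11893 (0.943), Fic (0.926) and MRP (0.921). CG12934 and Cyp4p1 stood in both sets. Cyp4p1 encodes a cytochrome P450, MRP an ABC transporter and lectin-24Db a C-type lectin.

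Cyp4p1 was at 17.8 to 30.9 CPM in 412KD, 71.5 to 111 in RooKD and 45.6 to 72.6 in scramble. CG12934 was at 12.4 to 31.5 CPM in 412KD, 104 to 183 in RooKD and 71.8 to 93.5 in scramble. Low levels in 412KD are what this search selects, so no support is drawn from them. All 412KD libraries lay below all RooKD libraries for each of the 6 listed genes outside the cluster (4.86% of all features), and below all scramble libraries for 5 of them (9.1%). Fic was the exception, with 35.98 to 41.73 CPM in 412KD and 41.68 to 43.4 in scramble.

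Inside the cluster, CG10559 was the next most like gene, with r = 0.832 to CG11893 (rank 29) and 0.858 to CG31436 (rank 20). CG31370 followed with 0.745 (rank 112) and 0.779 (rank 88). The gene least like both was CG13658, with −0.657 and −0.828.

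Some markers of other tissues were also lower in the 412KD libraries, and others higher. The summed level of 16 gut enterocyte markers was 18049 to 25195 CPM in 412KD (median 22196), against 12172 to 15257 in RooKD (15157) and 8567 to 11709 in scramble (11473). Of the 16, 11 were higher in every 412KD library than in every scramble library (8.67% of all features). Of these, 3 were also higher than in every RooKD library (4.23%). None was lower without overlap than scramble (9.1%) or RooKD (4.86%). All 16 were above 0 in each library except mag, which was at 0 in RooKD replicate 3. The gut sums did not overlap between any groups, with 412KD highest, RooKD between and scramble lowest. The 5 Malpighian tubule markers summed to 271 to 363 CPM in 412KD, 230 to 280 in RooKD and 140 to 262 in scramble. The 7 fat body markers summed to 42699 to 74404 CPM in 412KD (median 62540), 80636 to 90492 in RooKD (83962) and 40939 to 68565 in scramble (44947). Yp1, Yp2 and Yp3, the yolk protein genes, and apolpp, the lipophorin gene, make up most of this sum. The sum overlapped between 412KD and scramble, and every 412KD library lay below every RooKD library. Yp2, Yp3 and Lsp1beta were lower in every 412KD library than in every RooKD library (4.86% of all features). Of the 7 markers, only Lsp1beta, a larval storage protein gene, was also lower than in every scramble library (9.1%). None of them was higher in 412KD than either group without overlap. Lsp1beta had 30.2, 39.6 and 58.9 CPM in 412KD, 90.3, 143 and 169 in RooKD, and 272, 287 and 78.5 in scramble. Its log2 fold change in 412KD against scramble was −2.31 ± 0.53, with an adjusted p of 0.233 by edgeR and 2.1e-05 by DESeq2. Fbp1, a receptor gene of the fat body, had a log2 fold change of −4.47 ± 1.72, with overlapping libraries and an adjusted p of 0.422 by edgeR. In RooKD against scramble Fbp1 was as low, at −4.49 ± 1.79, and the scramble libraries themselves had 67.5, 44.9 and 0.18 CPM. Of the 7 fat body markers, 4 lay above 0 in 412KD against scramble, with a median log2 fold change of 0.14. Hemocyte markers summed to 556 to 872, 719 to 892 and 716 to 1308 CPM in 412KD, RooKD and scramble. Of these 6 markers, NimC1, a phagocytosis receptor gene, was lower in every 412KD library than in any other. The shares of all features lower without overlap were 9.1% against scramble and 4.86% against RooKD. NimC1 had 112, 114 and 61.9 CPM in 412KD, 165, 129 and 133 in RooKD, and 194, 156 and 209 in scramble. Its log2 fold change in 412KD against scramble was −0.96 ± 0.25, with an adjusted p of 0.270 by edgeR and 0.0120 by DESeq2. Another phagocytosis receptor gene, eater, lay below scramble without overlap (−0.55 ± 0.23, adjusted p 0.438 by edgeR) but overlapped RooKD. PPO1 and PPO2, the prophenoloxidase genes of crystal cells, had log2 fold changes of 1.15 ± 0.79 and 0.63 ± 0.54, with overlapping libraries. The 9 flight muscle markers summed to 10018 to 10838, 8763 to 10480 and 7713 to 9704 CPM. In 412KD against scramble DESeq2 called 10 of the 16 gut markers, 1 of the 5 tubule markers (salt) and 5 of the 10 ovary markers higher. It called 1 of the 7 fat body markers (Lsp1beta) and 1 of the 6 hemocyte markers (NimC1) lower, and 0 of the 9 flight muscle markers. The share of all features called was 2.97%, and edgeR called 0 in each of these lists. The part of these tissues in the levels of CG11893 and CG31436 was not tested.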

How the data were processed

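For each hairpin there is 1 deposited table that also holds the scramble libraries, with raw read counts per feature. The deposited normalized signal equals the count over a size factor of the library, judging by the values, and was not tested. The deposited FPKM values, which the file headers name as such, were used to compare levels between genes. The deposited log2 fold changes come from the authors' own comparisons, per the file headers, and are quoted once, for the chosen pair. The deposited p-values from the same comparisons were not used. Per the submitters' processing notes, HISAT2, DESeq2 and build dm6 were used, with no version named. The counting tool, its strand setting and its handling of multi-mapped reads are not stated here, so reads shared between similar tandem genes cannot be assessed.

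The test was that of edgeR 4.0.16, run in R 4.3.3 (TMM, filterByExpr, robust quasi-likelihood F test, Benjamini-Hochberg adjusted p under 0.05 over all features). A hairpin was compared with scramble over the 6 libraries of its table, and the hairpins with each other in a fit of 9 libraries on 13759 shared features. The SE of a log2 fold change is its size divided by the square root of F. DESeq2 1.42.0 was the main alternative. The others were RLE scaling, no filter, other sets of libraries, a replicate block and each library left out in turn. 6 low-complexity features were left out of each table, and 5 symbols turned into dates were restored by identifier. The script was tested on simulated counts.

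All genes of the window are named. Outside it, the rule names the 4 nearest tested genes on each side, the 5 features most like each chosen gene, and list members that were called or are among the most abundant. CG5644, CG9259, CG33509 and CG33511 were named as the ends of a range after their values had been seen. So were Fbp1, eater, PPO1 and PPO2 among the markers. Of 14299 FlyBase genes 14203 were in the reference annotation, and coordinates are those of the deposited tables. No protein sequences were given, so the family is a hand-written list of 51 genes, of which 48 are in the tables, all with the kinase domain in the deposited descriptions. The members and lists were chosen with earlier results of these data known.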

Additional observations from a re-analysis of the deposited data

How the results depend on the processing

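Of the log2 fold changes of the cluster's genes under the alternatives, 574 moved by less than the spread between replicates, 3 moved by more and 1 became a call. Over the alternatives, the log2 fold change of CG11893 ran from −2.79 to −2.18 in 412KD against scramble, from 0.36 to 0.89 in RooKD against scramble and from −3.30 to −2.73 in 412KD against RooKD. For CG31436 the ranges were −0.94 to −0.60, 0.36 to 0.53 and −1.39 to −1.05. The number of the other cluster genes called was 0 under every alternative except DESeq2 in RooKD against scramble, which gave 1 (CG31104). The number called among kinase-like genes outside the cluster was 0 under every alternative. Counts over all features were small and moved more. In 412KD against scramble edgeR called 2, with 337 by DESeq2, 14 with all 9 libraries in the fit, 15 with no filter and 0 to 105 with 1 library left out, the 105 without 412KD replicate 3. In RooKD against scramble it called 11, with 346 by DESeq2, 26 with no filter and 0 to 44 with 1 library left out, the 44 without RooKD replicate 1 and the 0 without scramble replicate 2. In 412KD against RooKD it called 10, with 4 from the 6 libraries alone, 81 by DESeq2, 2 to 22 with 1 library left out, the 22 without 412KD replicate 3, and 70 without both 412KD replicate 3 and RooKD replicate 1, an alternative chosen after seeing the data. Whether the replicate numbers pair the libraries is not stated. Correlations of same-numbered libraries ran from −0.21 to 0.39, and 4 of 9 exceeded 0.1. Those of libraries with unlike numbers ran from −0.50 to 0.37, so the correlations cannot settle the pairing. With the replicate number as a block, edgeR called 0, 10 and 4 features in the 3 comparisons. The cause of these changes was not tested. Depth limited CG31099, at 0 to 6 reads, and the 412KD libraries of CG11893, at 41 to 89 reads.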
